A study of Mus musculus with 16 samples.

Results

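The respiratory chain genes described here are the subunit genes of mitochondrial complexes I to V in the mouse hypothalamus. They were chosen by name: rows for Nduf subunits (letters a, b, c, s and v), Sdha to Sdhd, Uqcr, Cox4 to Cox8 and Atp5 genes from the nucleus, without pseudogenes, and mt-Nd, mt-Co, mt-Atp and mt-Cyt genes from the mitochondrial genome, each with a mean raw count of 10 or more. This gave 90 of 47069 rows, 78 nuclear and 12 mitochondrial. Of these, 89 passed the filter on low counts and were tested, 77 nuclear and 12 mitochondrial. The name rule also met 7 rows under a mean of 10, of which the nearest was Cox7b2 at 6.69 counts. The members just inside were Uqcrc1 at 14.0, mt-Nd3 at 16.4 and mt-Nd4l at 19 counts.

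RNA sequencing was done on hypothalamus from C57BL/6N mice, an inbred strain, on 8 diets. The diets crossed fat at 60% or 20% of energy with protein at 1%, 2.5%, 5% or 20% of energy. Each diet had 2 libraries numbered as replicates, so 4 libraries stood at each protein level and 8 at each fat level. No transgene or other genetic change is named, and age and sex were not given in the sources used here. Whether 2 libraries on a diet are 2 animals is not stated, so each p-value reflects spread among libraries that may be technical.

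Complex I takes electrons from NADH and complex II from succinate. Complexes III and IV pass them on to oxygen, and complexes I, III and IV pump protons. Complex V, the ATP synthase, uses the proton gradient to make ATP. Complex II is built from nuclear genes alone, and every other complex also holds subunits made inside the mitochondrion from its own genome, so the 2 genomes have to supply parts that fit together. The hypothalamus senses nutrients and sets feeding, and its neurons, like others, rely on this chain for most of their ATP.

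Library totals ran from 17731242 to 18511818 counts. Replicate 2 on 20% fat and 1% protein stood apart from the other 3 libraries at 1% protein. It had the highest summed CPM (counts scaled for library size with TMM factors) of mitochondrial genome members at 1% protein, 25379 against 13041 to 14819, and the lowest sum of nuclear members, 10096 against 11513 to 11796. Cortex and hippocampus markers summed to 784 CPM in that library and to 1678 in replicate 2 on 20% fat and 2.5% protein, and to at most 493 at 5% and 477 at 20% protein. Hypothalamus markers summed to 765 to 1097 CPM at 1% protein and 902 to 1072 at 20%, with 2 of 12 rising, 4 falling and 0 at 0. Thalamus markers summed to 708 to 966 CPM at 1% protein against 431 to 601 at 20%, with 4 of 6 rising, and endothelium markers to 155 to 164 against 196 to 228, with 5 of 6 falling. Pituitary markers summed to 11.8 to 14.6 CPM at 1% protein and 44.8 to 59.6 at 20%, with 1 of 4 falling. Most of these sums was Pomc, which is also in the hypothalamus list, at 11.5 to 13.7 CPM and 41.7 to 58.4 CPM. Gh had 0.28 to 1.03 CPM at 1% protein and 0.92 to 7.67 at 20%, and Prl and Cga had at most 0.97 CPM at either level. The sums thus follow mostly Pomc, and the amount of pituitary tissue was not tested. Choroid plexus markers summed to 249.1 CPM in replicate 2 on 20% fat and 1% protein, up to 213 at 2.5% protein and 41.8 to 52.5 at 20%, with 1 of 4 tested rising and Kcnj13 at 0 in every library. The part of these marker levels in the results below was not tested.

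The mitochondrial genome members did not hold comparable counts per length. mt-Co1, a catalytic subunit of complex IV, had a mean raw count of 105886 over 16 libraries, or 68535 counts per kb, and mt-Cytb, the cytochrome b of complex III, had 74652 per kb. The complex I genes mt-Nd1, mt-Nd2, mt-Nd4, mt-Nd5 and mt-Nd6 held between 19664 and 57937 counts per kb. In contrast, mt-Co2 held 368, mt-Atp6 285, mt-Co3 284, mt-Nd4l 64.0 and mt-Nd3 47.1 counts per kb, and mt-Nd1 stood 157 times above mt-Co2. The 5 low genes were those whose sequence lay almost whole, for 98.99% to 99.87% of the gene, in a pseudogene copy on chromosome 1 with at most 1 mismatch. mt-Atp8, which the count minimum left out at 4.5 counts, is also low and had no copy of 99% identity or more in the annotation. It lies between mt-Co2 and mt-Atp6 and overlaps mt-Atp6. Only annotated transcripts were searched, so the stretch of chromosome 1 between the copies of mt-Co2 and mt-Atp6 was not searched for mt-Atp8. mt-Co1 and mt-Nd4 shared 31.3% and 63.6% of their length with an annotated chromosome 1 copy of 99% identity or more. A read from a shared stretch fits both places, so the counts of mt-Co2, mt-Co3, mt-Atp6, mt-Nd3 and mt-Nd4l are uncertain, and those of mt-Co1 and mt-Nd4 in part. If all their counts are set on the bases outside the copy, mt-Co1 held 99704.3 and mt-Nd4 53978.5 counts per kb. Their rank among the genes per kb thus depends on the shared stretch. The handling of reads with several places was not given in the sources used here.

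The first 90 bases of mt-Co2 and of its chromosome 1 copy Gm28661 are shown because they have 0 differences, and those of mt-Nd3 and its copy Gm28438 because capitals mark their single difference, T3C, counted from 1 at the start of the gene with the mitochondrial base first. The sequences are from GRCm38, at chrM:7013-7102 (plus strand), chr1:24615476-24615565 (minus strand), chrM:9459-9548 (plus strand) and chr1:24613030-24613119 (minus strand).
mt-Co2: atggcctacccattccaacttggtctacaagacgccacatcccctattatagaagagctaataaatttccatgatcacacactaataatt
Gm28661: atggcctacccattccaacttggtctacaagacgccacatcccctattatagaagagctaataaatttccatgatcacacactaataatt
mt-Nd3: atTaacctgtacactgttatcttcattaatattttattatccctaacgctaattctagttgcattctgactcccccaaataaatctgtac
Gm28438: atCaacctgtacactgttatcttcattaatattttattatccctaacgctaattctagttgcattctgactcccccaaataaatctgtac
For mt-Co2, a read from this stretch cannot be placed on a single genome.

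**Figure D1:**
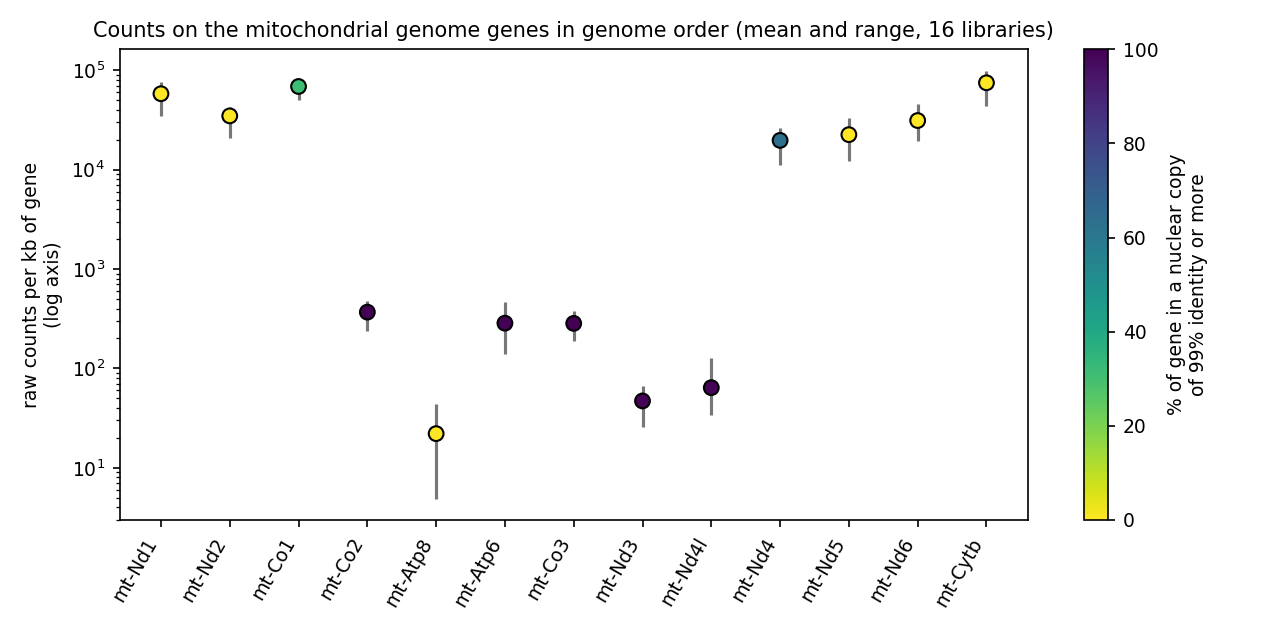
Mean raw counts per kb of gene (log axis, points) with the lowest and highest of 16 libraries (lines) for the 13 protein genes of the mitochondrial genome in genome order, coloured by the share of the gene found in a nuclear copy of 99% identity or more. mt-Co2, mt-Atp6, mt-Co3, mt-Nd3 and mt-Nd4l lie at 368 counts per kb or less, and mt-Cytb and mt-Co1 lie highest.

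Nuclear rows showed gaps of another kind. Ndufa13, a complex I subunit, Cox4i1, the widely expressed form of a complex IV subunit, and Cox6a2, the muscle form of another, had 0 counts in all 16 libraries. In the annotation 100% of the exon bases of these 3 genes lie within the span of other genes, so these rows say nothing of expression. Uqcrc1, a core subunit of complex III, had 193 counts in replicate 1 on 20% fat and 5% protein and 0 to 5 in the other 15 libraries, with 0 annotated genes overlapping it, and it was not tested. For 54 of the 78 nuclear members the deposited gene length was the whole span on the genome, introns included. Near-identical copies elsewhere exist for 15 members over both genomes, and the nuclear ones are Ndufs3, Ndufb11, Uqcrb, Atp5h, Atp5k, Atp5l and Atp5o. Other genes lie over 64.6% of the exon bases of Ndufb8 and 73.3% of those of Atp5o. The counts of these nuclear genes are uncertain.

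At 1% against 20% protein, over both fat levels, most nuclear members had log2 changes above 0 and most mitochondrial members below 0. Of 77 nuclear members, 25 rose, 1 fell and 51 did not pass (edgeR's quasi-likelihood test, Benjamini-Hochberg adjusted p under 0.05), against 8.26% of all 16646 genes tested that rose and 6.01% that fell. The median nuclear log2 change was 0.20, against 0.003 over all genes tested, and 73 of 77 estimates were above 0. Of 12 mitochondrial members, 0 rose, 1 fell and 11 did not pass, with a median log2 change of -0.34 and 11 of 12 estimates below 0. At an unadjusted p under 0.05, 51 nuclear and 2 mitochondrial members passed, against 31.7% of all genes. In bulk tissue, fewer cells of a type and less RNA per cell cannot be told apart.

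The nuclear sum was 9776 ± 686 CPM (SD, n = 4) at 20% protein, 10083 ± 609 at 5%, 10088 ± 155 at 2.5% and 11257 ± 783 at 1%. The mitochondrial sum was 20994 ± 1246 CPM at 20% protein, 21027 ± 2812 at 5%, 21373 ± 2154 at 2.5% and 16705 ± 5830 at 1%. At 1% protein the ratio of the 2 sums was 1.11 and 1.17 at 60% fat and 1.29 and 2.51 at 20% fat. In the other 12 libraries it ran from 1.72 to 2.68, so 3 of the 4 libraries at 1% lay below all others and the 4th lay inside their range.

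**Figure D2:**
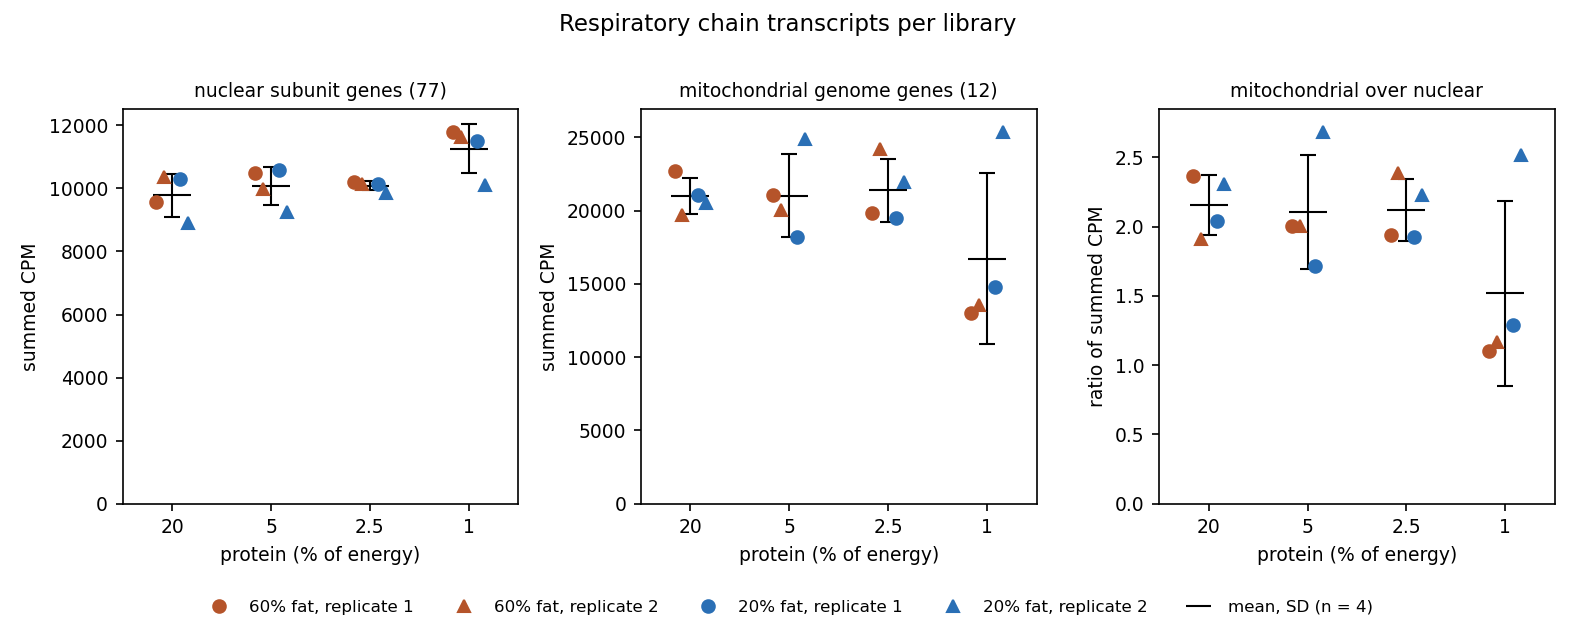
Summed CPM of the 77 nuclear members (left), of the 12 mitochondrial genome members (middle) and their ratio (right) for each library by dietary protein, coloured by fat, with the mean and SD of 4 libraries in black. At 1% protein the nuclear sums were 11796, 11625, 11513 and 10096, and replicate 2 of 20% fat, a blue triangle, lies within the range of the other protein levels in the left and right panels and is the highest of 16 libraries in the middle panel.

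The number of calls depended on single libraries, and the share of all genes called moved with it. Without replicate 2 on 20% fat and 1% protein, 46 nuclear members rose, 1 fell and 11 mitochondrial members fell, while 33.0% of all genes were called. Without replicate 1 on 20% fat and 1% protein, or without replicate 2 on 20% fat and 20% protein, 1 nuclear member was called, against 5.52% and 5.64% of all genes. Without replicate 1 or replicate 2 on 60% fat and 1% protein, 6 and 4 nuclear members were called, against 6.66% and 5.74%. Without replicate 1 or replicate 2 on 60% fat and 20% protein, 4 and 12 were called, against 6.36% and 7.95%. Leaving out 1 library at 2.5% or 5% protein also moved the count by over 1.5 times in 6 cases, with 10.6% to 13.0% of all genes called. It was 14 and 16 without replicate 1 and 2 on 60% fat and 2.5% protein, 15 and 12 without those on 60% fat and 5% protein, and 16 and 17 without those on 20% fat and 2.5% protein. With the 8 libraries at 1% and 20% protein alone, 1 nuclear and 0 mitochondrial members were called, against 4.95% of all genes. Each call named below was tested under 24 alternative settings.

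Gene length moved with these values. Across all genes tested, the Spearman correlation of a library's deviation from the mean with the deposited gene length was -0.26, -0.17 and -0.26 in both libraries at 60% fat and replicate 1 on 20% fat and 1% protein, 0.17 in replicate 2 on 20% fat and 1% protein, and between -0.14 and 0.32 in the other 12. After a length trend was removed in each library, 19 nuclear members were called (18 rose, 1 fell), against 13.7% of all genes. The nuclear median was then 0.14. The mitochondrial median was -0.46, with 2 of 12 members called. Nuclear and mitochondrial members had medians of opposite sign in 13 of 16 libraries.

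Of the complex I genes, 12 of 36 nuclear members rose and 1 fell, against 8.26% and 6.01% of all genes tested. Ndufv3, an accessory subunit of the NADH-binding arm, had the lowest adjusted p, 0.00271, of any member. Its CPM at 1% protein was 102 and 95.1 at 60% fat and 94.7 and 82.4 at 20% fat, against 70.3, 76.4, 77.4 and 66.9 in that order at 20% protein. All 4 libraries at 1% lay above all 4 at 20%, a log2 rise of 0.36 ± 0.07 (SE), and Ndufv3 passed in all 24 alternative settings. Its mean was 79.4 ± 3.48 CPM (SD, n = 4) at 5% and 79.5 ± 4.29 at 2.5%, between the end levels. 

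Ndufv1, the core subunit that binds NADH and the flavin, had 274, 269, 275 and 215 CPM at 1% protein, in the same order, against 207, 228, 215 and 189 at 20%. The first 3 lay above every library at 20%, while the 4th overlapped them (log2 0.30 ± 0.07, adjusted p = 0.0137). Ndufb9, a membrane arm subunit, showed the same layout at 184, 184, 180 and 149 CPM against 136, 147, 153 and 119 (log2 0.33 ± 0.08, adjusted p = 0.0168). Ndufv1 passed in 20 of 24 alternatives and Ndufb9 in 18. Ndufa9, an accessory subunit at the junction of the arms, rose by log2 0.20 ± 0.05 with no overlap and passed in 19 alternatives. Ndufa10, another accessory subunit, rose by 0.21 ± 0.07 at an adjusted p of 0.0499 and lost the threshold in 18 of 24 alternatives (adjusted p up to 0.171). The core subunit Ndufs1, which carries iron-sulfur clusters, did not pass at 0.04, and 70.4% of its exon bases lie under other genes.

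Ndufb2, a small membrane arm subunit, was the only nuclear member that fell. It had 31.3, 30.2, 28.4 and 26.8 CPM at 1% protein, all below the 31.7, 35.0, 34.7 and 34.0 at 20% (log2 -0.22 ± 0.06, adjusted p = 0.0252). Its estimates were below 0 and past the threshold in 19 of 24 alternatives. Ndufa4, now placed in complex IV though its name counts it here, and its paralog Ndufa4l2 had log2 changes of 0.18 and 0.17 that did not pass. Mural cell markers, given because Ndufa4l2 and Cox4i2 are known from such cells, summed to 220 to 240 CPM at 1% protein and 262 to 279 at 20%, with 2 of 10 rising and 4 falling, and 0 at 0.

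Complex II has 4 members and 2 rose, against 8.26% of all genes tested. Sdhd, a membrane anchor, had 83.7, 86.4, 86.9 and 75.3 CPM against 65.9, 75.3, 75.5 and 66.6 (log2 0.23 ± 0.06, adjusted p = 0.0252), and the 4th value lay within the range at 20% protein. Sdhb, the iron-sulfur subunit, rose by 0.22 ± 0.07 and lost the threshold in 13 of 24 alternatives (adjusted p up to 0.164), while Sdhd lost it in 6. Sdha, the flavoprotein subunit, was at 0.14 ± 0.05 (adjusted p = 0.0611) and did not pass.

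In complex III, 1 of 7 tested members rose, against 8.26% of all genes tested. It was Uqcrq, a small subunit, at 124, 126, 125 and 104 CPM against 93.9, 110, 111 and 91.1 (log2 0.24 ± 0.07, adjusted p = 0.0422). Uqcrq lost the threshold in 15 of 24 alternatives (adjusted p up to 0.159). Uqcrfs1, the Rieske iron-sulfur protein, did not pass at 0.18 ± 0.06 (adjusted p = 0.0534). The 3 libraries at 1% other than replicate 2 of 20% fat lay above all 4 at 20% protein for both genes, as for 21% of all genes tested. That replicate was set apart by the sums of these same members, so this is no test.

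In complex IV, 2 of 13 members rose, against 8.26% of all genes tested. Cox7a2l, known for its part in joining complexes III and IV, had 88.4, 90.7, 93.2 and 77.4 CPM at 1% protein against 69.1, 75.1, 74.4 and 62.1 at 20%, with no overlap (log2 0.32 ± 0.08, adjusted p = 0.0137). Cox8a, the form of that small subunit found in most tissues, rose by 0.26 ± 0.08. Cox7a2l passed in 20 of 24 alternatives and Cox8a in 15. Of the muscle forms, Cox7a1 had 1.86 to 2.70 CPM at 1% and 1.55 to 2.32 at 20% protein, and Cox8b was under the count minimum at 2.44 mean counts. Striated muscle markers summed to 6.29 to 8.02 CPM at 1% and 6.14 to 8.75 at 20% protein, with Acta1 at 0 in every library. The log2 changes of Cox7a1 (0.20), Cox7a2 (0.08), Cox6a1 (0.28), Cox6b1 (0.18), Cox6b2 (-0.13), Cox5a (0.16) and Cox4i2 (0.38), the paralog of the Cox4i1 gene listed at 0, did not pass. For Cox6b2 the estimate was above 0 without replicate 2 on 20% fat and 1% protein, at 0.02.

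In complex V, 8 of 17 members rose, against 8.26% of all genes tested. Atp5a1 and Atp5b, the alpha and beta subunits, form the catalytic head. Atp5a1 had 1233, 1206, 1171 and 1024 CPM at 1% protein against 962, 1018, 998 and 900 at 20%, with no overlap (log2 0.26 ± 0.06, adjusted p = 0.0125). Atp5b had 1636, 1630, 1556 and 1349 against 1316, 1407, 1362 and 1224 (log2 0.22 ± 0.06, adjusted p = 0.0311), and only the 4th value overlapped. Atp5c1, the rotating gamma stalk, rose by 0.17 ± 0.05 and lost the threshold in 16 of 24 alternatives (adjusted p up to 0.160). Atp5k, the small subunit e, rose by 0.36 ± 0.11 on values of 55.6, 43.8, 51.1 and 43.7 against 33.9, 45.2, 42.9 and 29.9, which overlap, and it has 1 near-identical copy. Atp5g2 rose by 0.30 ± 0.09, while Atp5g1 at 0.17 and Atp5g3 at 0.21, which make the same mature c-ring protein, did not pass. Atp5sl, which despite its name is known as an assembly factor for complex I, rose by 0.23 ± 0.06. Atp5a1 passed in 20 alternatives, Atp5sl in 18, Atp5b in 16, Atp5g2 in 14 and Atp5k in 11.

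Among all members called, 7 nuclear genes showed no overlap between the 4 libraries at 1% and the 4 at 20%, of which 6 lay above and Ndufb2 below. Over all 77 nuclear members, 10 lay wholly above, against 7.4% of all genes tested, and 1 wholly below, against 6.35%. Without replicate 2 of 20% fat, the other 3 libraries at 1% lay above all 4 at 20% for 50 of 77 nuclear members, against 21% of all genes. They lay below for 12 of 12 mitochondrial members, against 19%. That replicate lay below the other 3 libraries at 1% for 61 of 77 nuclear members, against 38.2% of all genes, and above them for 12 of 12 mitochondrial members, against 34.5%. It was set apart above by the sums of these same members, so the counts with and without it describe the layout and are no test. The mitochondrial members moved together across libraries, so 12 of 12 does not stand for 12 separate results.

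**Figure D3:**
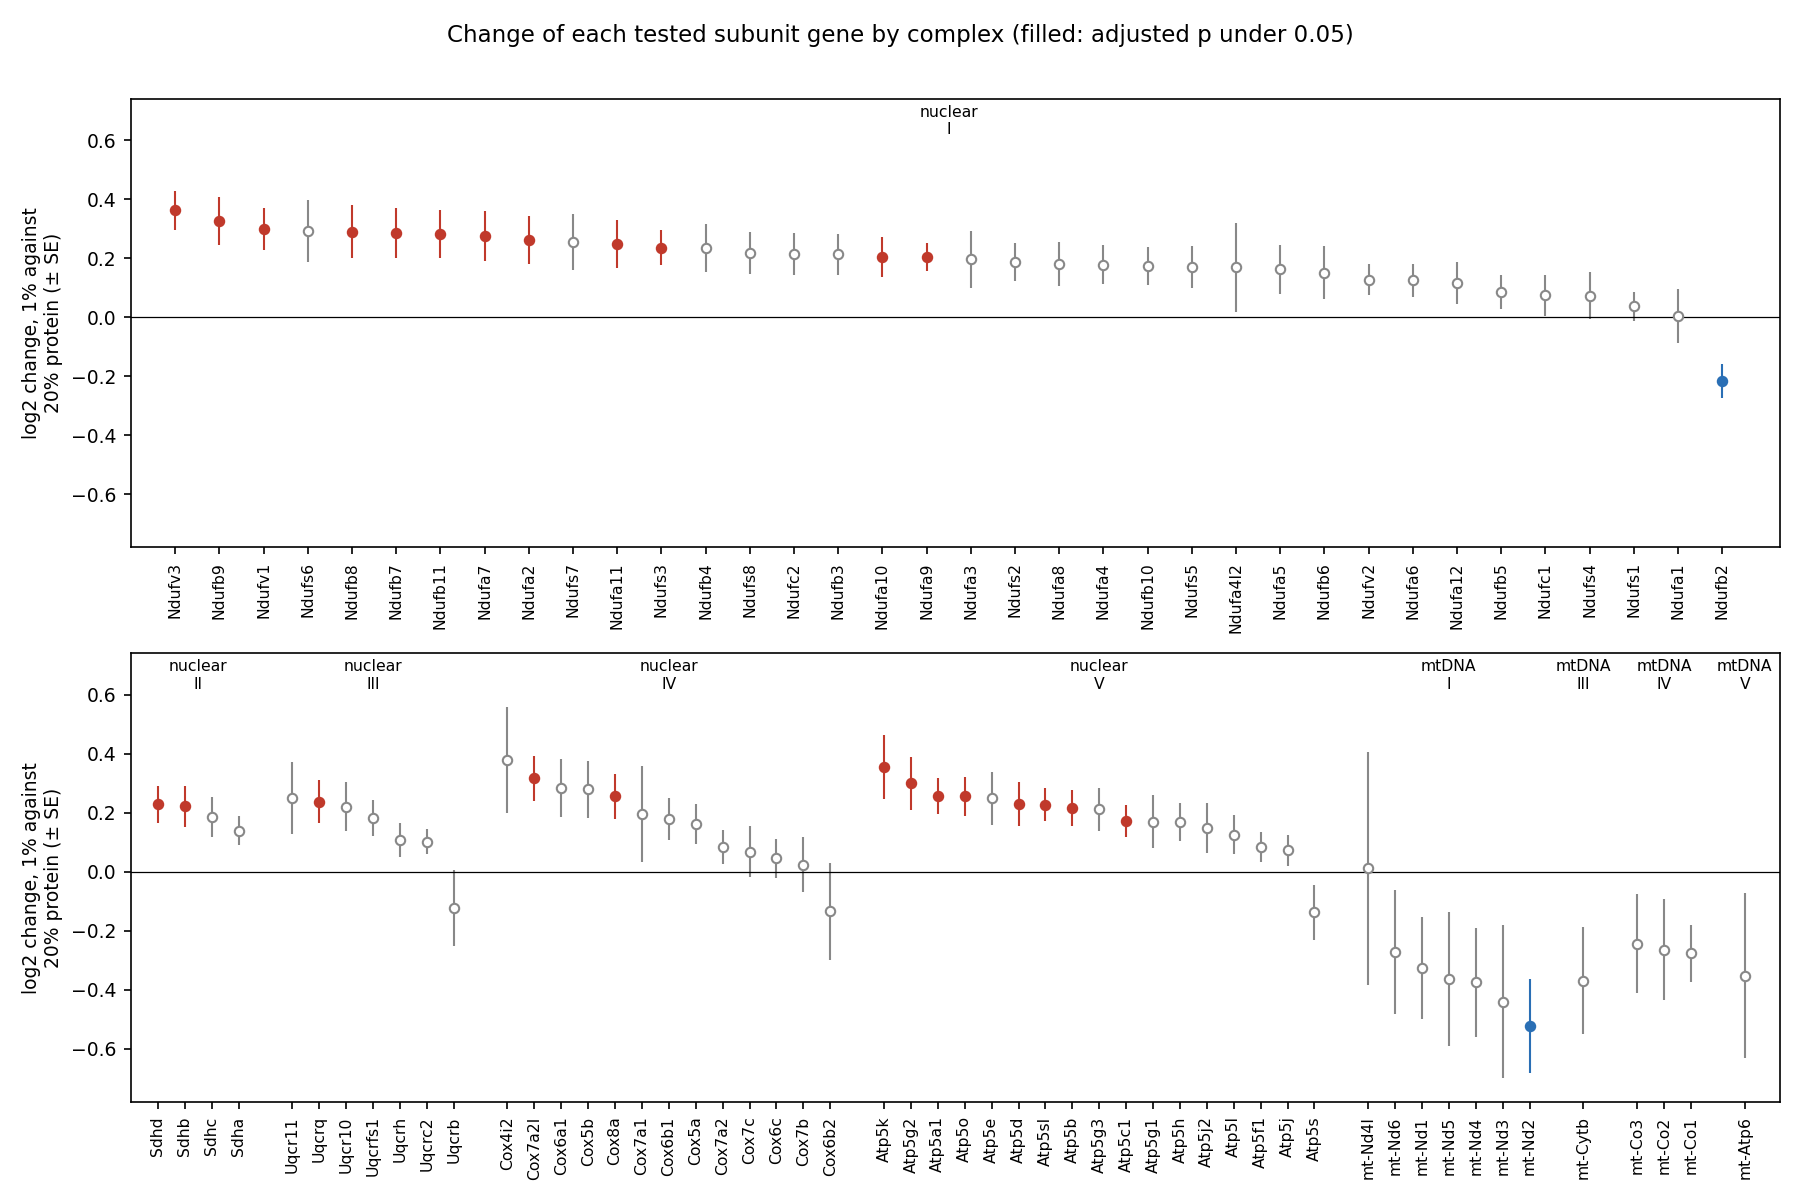
Log2 change at 1% against 20% protein with its SE for each of 89 tested members, by genome and complex and ordered by size, filled where the adjusted p was under 0.05 (red rose, blue fell). Nuclear members lie mostly above 0 in all 5 complexes, with medians from 0.18 to 0.21, and all mitochondrial members but mt-Nd4l lie below 0.

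**Figure D4:**
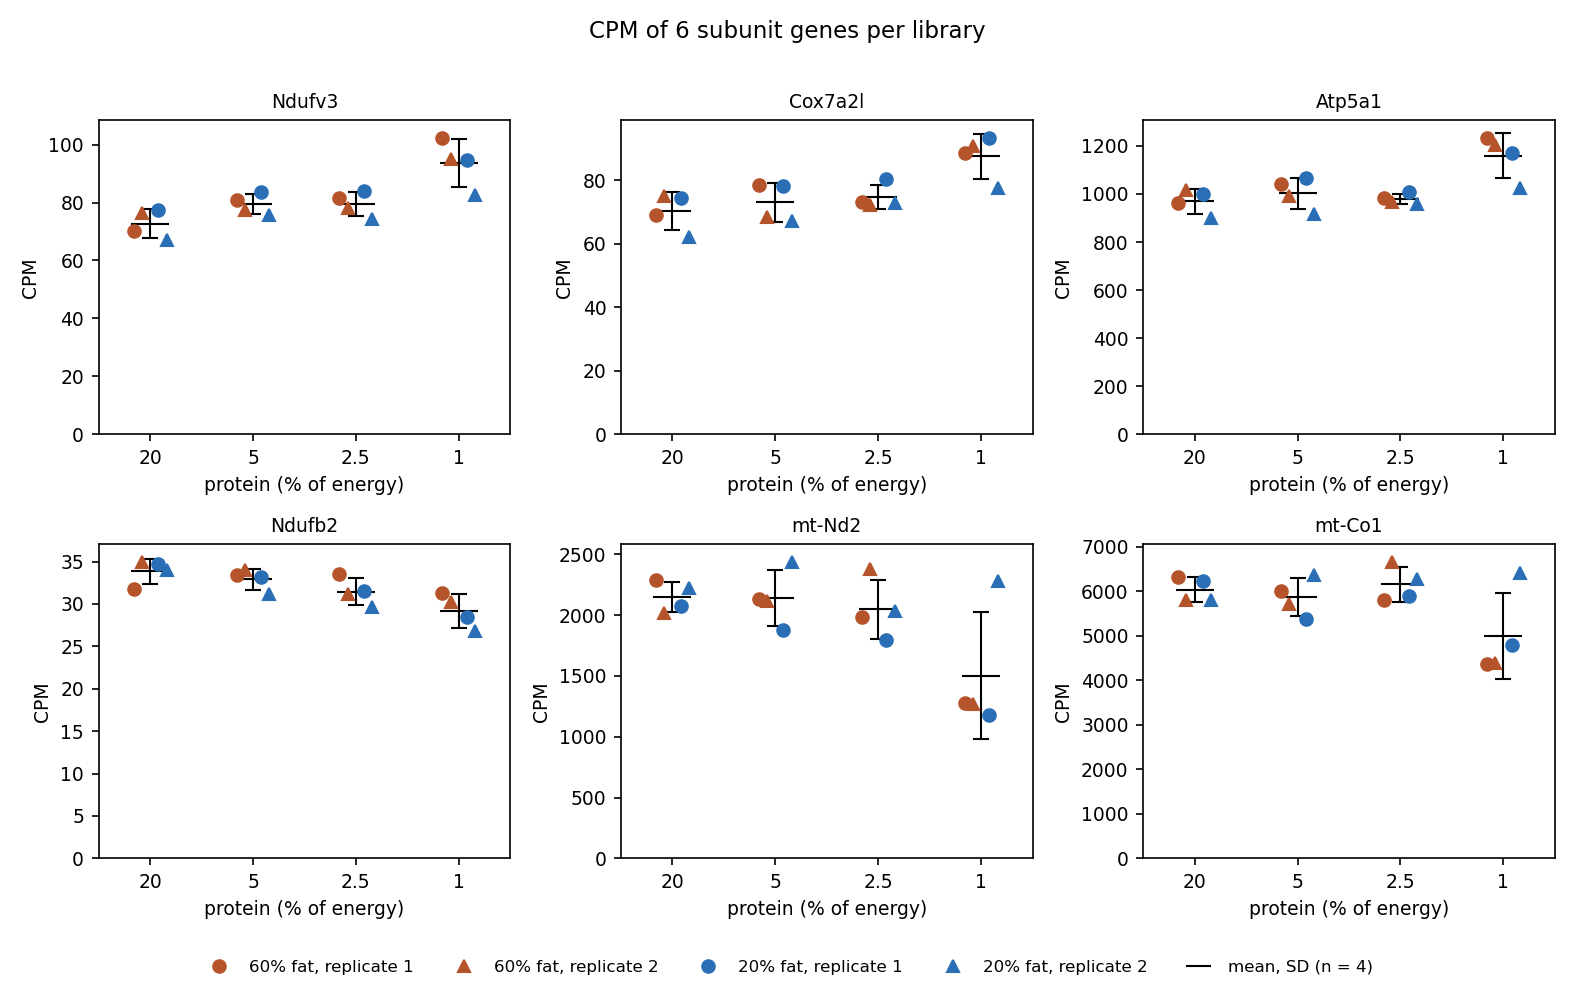
CPM per library of 6 members by dietary protein, coloured by fat, with the mean and SD of 4 libraries in black. Ndufv3, Cox7a2l and Atp5a1 lie higher at 1% than at 20% protein in every library, Ndufb2 lies lower, and for mt-Nd2 and mt-Co1 replicate 2 of 20% fat lies apart from the other 3 libraries at 1%.

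The mitochondrial genome members lay low in 3 of the 4 libraries at 1% protein. mt-Nd2, a membrane subunit of complex I, had 1281 and 1270 CPM at 60% fat and 1182 and 2280 at 20% fat with 1% protein, against 2285, 2017, 2078 and 2224 at 20% protein (log2 -0.52 ± 0.16, adjusted p = 0.0393). It was the only mitochondrial member called and passed in 14 of 24 alternatives, with adjusted p from 2.09e-05 to 0.127. Among the others with over 10000 mean counts, mt-Nd1 was at -0.33, mt-Nd4 at -0.38, mt-Nd5 at -0.36, mt-Nd6 at -0.27, mt-Co1 at -0.28 and mt-Cytb at -0.37, and none passed. For mt-Cytb the values were 2837, 2948, 3394 and 6140 CPM against 5321, 4569, 4909 and 4706, so the 4th library was the highest of the 8. The genes that share almost all of their sequence with a nuclear copy, mt-Co2 at -0.26, mt-Atp6 at -0.35, mt-Co3 at -0.24, mt-Nd3 at -0.44 and mt-Nd4l at 0.01, did not pass. The estimate of mt-Nd4l was below 0 in 13 of 24 alternatives and -0.66 without replicate 2 on 20% fat and 1% protein. mt-Rnr1 and mt-Rnr2, the mitochondrial ribosomal RNA genes, were at -0.38 ± 0.19 and -0.31 ± 0.17 (0 of 2 passed).

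**Figure D5:**
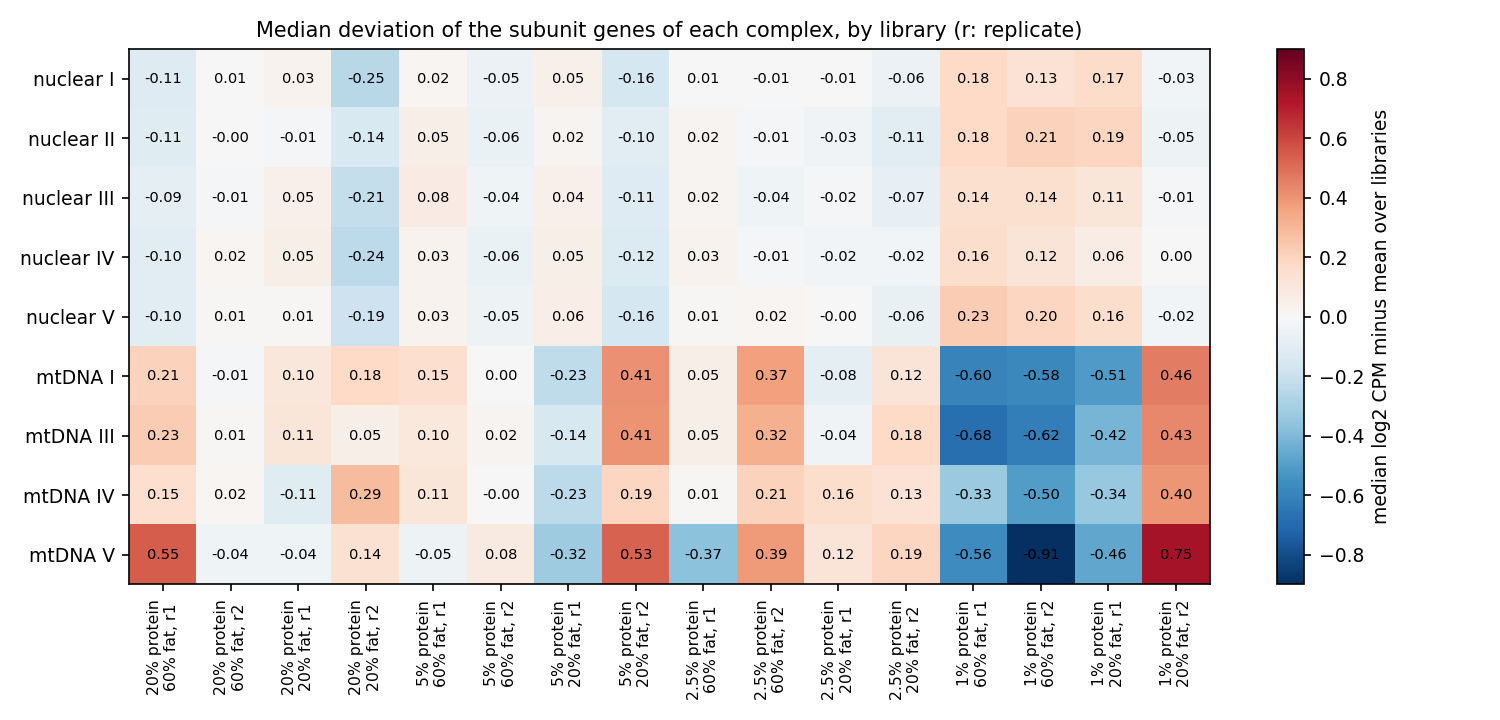
Median deviation of log2 CPM from the mean over 16 libraries for the members of each complex, by genome (rows) and library (columns, with replicate number r). In 3 of the 4 libraries at 1% protein all nuclear complexes are above 0 and all mitochondrial ones below, and in replicate 2 of 20% fat the mitochondrial ones are above 0 and the nuclear ones between -0.05 and 0.004.

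Between 2.5% or 5% and 20% protein, no member passed edgeR's quasi-likelihood test. At 2.5% protein 0 of 89 members were called, against 0.00601% of all genes, with 0 at an unadjusted p under 0.05, against 4.81%, and 0 by DESeq2. At 5% protein 0 were called, against 0.03%, with 0 at an unadjusted p under 0.05, against 3.01%, and 0 by DESeq2. Nuclear medians were 0.05 and 0.04, and mitochondrial medians 0.03 and -0.006. The comparisons share the 4 libraries at 20% protein. Along the fitted line over all 4 protein levels 0 members were called, against 0.018%, with 24 nuclear and 0 mitochondrial members at an unadjusted p under 0.05, against 14.6%, and 0 by DESeq2. The nuclear median along that line was 0.13 and the mitochondrial -0.15, as a log2 change from 20% to 1% protein. With protein on a log2 scale, 9 of 89 members were called (8 rose, 1 fell), against 7.88% of all genes.

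Between 60% and 20% fat, 0 of 89 were called, against 0.00601% of all genes, with 6 nuclear members at an unadjusted p under 0.05, against 7.79%, and 0 by DESeq2. The nuclear median was 0.05 and the mitochondrial median -0.15. The 6 were Ndufa10, Ndufa11, Ndufb10, Cox5a, Atp5d and Atp5o, with log2 estimates from 0.10 to 0.13 and adjusted p = 0.628 each.

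At each fat level alone, few members passed. At 60% fat 2 were called, against 4.25% of all genes (1.97% rose and 2.28% fell). DESeq2 called 11 (7 rose, 4 fell), against 9.09%, the fit with the replicate block 16, against 11.2%, and leaving out 1 library gave 0 to 27, against 0.0939% to 16.2%. It was 0 without any 1 library on 60% fat, and 27 without either library on 20% fat and 1% protein. Ndufv3 rose by 0.43 ± 0.10 (adjusted p = 0.0360) and mt-Co1 fell by 0.47 ± 0.12 on the log2 scale (adjusted p = 0.0495), with CPM of 4380 and 4401 at 1% protein against 6329 and 5805 at 20%. The mitochondrial median was -0.70, and 43 members had an unadjusted p under 0.05, against 28.2%. At 20% fat 0 were called, against 1.78%, with 17 members at an unadjusted p under 0.05, against 15.4%, and 0 by DESeq2, and the mitochondrial median was 0.007. The count of 0 at 20% fat moved up with the length trend removed, without the cortex-marker libraries and in leaving out 1 library. mt-Co1 had 4805 and 6425 CPM at 1% protein there, against 6226 and 5801. The difference between the fat levels was called for 0 members, against 0%, with 7 members, of which 5 were mitochondrial, at an unadjusted p under 0.05, against 7.84%, and 0 by DESeq2. The median difference of mitochondrial members was -0.73 (60% minus 20% fat), and without the 2 libraries with cortex markers it was -0.15. That last value rests on 1 library on 20% fat and 1% protein.

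The promoters of nuclear members were searched for 3 motifs because 73 of 77 tested members lay above 0 at 1% protein. The RefSeq promoter table (GRCm38.p6, 250 bases before to 50 after each start) matched 66 of 78 nuclear members, with 72 windows. The NRF1 motif GCGCATGCG was in 11.1% of these windows and 1.75% of 32851 windows of all genes. The ETS motif CCGGAAG, bound by factors such as GABPA, was in 22.2% against 8.86%, and the YY1 motif AAGATGGCG in 12.5% against 1.4%. In the 25 windows of nuclear members that rose, the shares were 12%, 24% and 12% in that order, close to those of all nuclear members. Both strands were searched and overlaps between motifs were counted for each. A match is a description of letters and shows no binding. Of the named members that rose, only the 4 with a whole motif in the 250 bases before the start are shown. The other named members that rose had none there or were not matched. The motif is in capitals, with 250 bases up to the start and read along the gene: Sdhd at chr9:50603850-50604099 (minus), Atp5k at chr5:108434400-108434649 (minus), Atp5g2 at chr15:102671048-102671297 (minus) and Atp5sl at chr7:25619243-25619492 (plus).
Sdhd: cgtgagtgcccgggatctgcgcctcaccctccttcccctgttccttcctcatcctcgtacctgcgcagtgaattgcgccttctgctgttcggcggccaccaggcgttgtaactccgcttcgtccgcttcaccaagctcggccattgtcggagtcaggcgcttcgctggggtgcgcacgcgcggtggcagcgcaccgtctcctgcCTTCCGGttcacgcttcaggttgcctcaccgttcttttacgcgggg
Atp5k: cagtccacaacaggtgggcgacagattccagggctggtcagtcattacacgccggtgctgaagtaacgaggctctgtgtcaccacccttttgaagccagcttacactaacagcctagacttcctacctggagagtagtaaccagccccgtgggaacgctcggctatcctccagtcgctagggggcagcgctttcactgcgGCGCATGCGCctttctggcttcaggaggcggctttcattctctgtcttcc
Atp5g2: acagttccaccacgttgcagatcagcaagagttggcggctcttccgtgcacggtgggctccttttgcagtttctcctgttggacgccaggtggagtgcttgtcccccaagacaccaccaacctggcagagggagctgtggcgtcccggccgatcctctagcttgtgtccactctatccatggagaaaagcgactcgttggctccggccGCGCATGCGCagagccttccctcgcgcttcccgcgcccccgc
Atp5sl: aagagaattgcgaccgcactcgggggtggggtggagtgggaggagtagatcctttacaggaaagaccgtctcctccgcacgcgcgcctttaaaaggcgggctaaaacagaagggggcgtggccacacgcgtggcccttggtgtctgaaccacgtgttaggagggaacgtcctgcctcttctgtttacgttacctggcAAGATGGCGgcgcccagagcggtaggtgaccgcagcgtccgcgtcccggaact
CTTCCGG in Sdhd is the ETS motif on the other strand, and in Atp5k and Atp5g2 the capitals join overlapping NRF1 matches on both strands.

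The other genes of the pathway are given at 1% against 20% protein, where 8.26% of all genes tested rose and 6.01% fell. Of 40 assembly factors tested, 6 rose and 1 fell, and among these 7 Sdhaf1 (complex II) at 0.46 and Surf1 (complex IV) at 0.38 were highest and Bcs1l (complex III) at -0.24 lowest. Of 14 citrate cycle genes, 5 rose and 0 fell, led by Idh2, the mitochondrial NADP isocitrate dehydrogenase, at 0.45 ± 0.07. Of 15 electron carriers and coupled enzymes, 3 rose, with Ucp2, an inner membrane carrier, at 0.39, and 2 fell, Nnt, the transhydrogenase, at -0.26 and Gpd2, the glycerol phosphate dehydrogenase, at -0.18.

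Of 24 genes for mitochondrial genome upkeep and expression, 2 rose and 1 fell, near the 8.26% and 6.01% of all genes tested. Tfam, which packages that genome and starts its transcription, was at 0.04 ± 0.06 and Polrmt, its RNA polymerase, at 0.11 ± 0.07, neither past the threshold. Of 18 regulators, 1 rose and 1 fell, also near those shares. Esrra, a nuclear receptor acting on respiratory chain genes, rose by 0.28, and Nrf1, whose motif was searched, fell by 0.18 on the log2 scale. The other 16 did not pass, among them Ppargc1a at -0.07 and Gabpa at -0.43 ± 0.15 (adjusted p = 0.0600). Of 70 mitochondrial ribosomal proteins, 10 rose and 0 fell (median 0.13), and of 76 cytosolic ribosomal proteins, 37 rose and 0 fell (median 0.25). The cytosolic ribosome list, which serves no respiratory role, thus had a larger median than the nuclear respiratory members.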

How the data were processed

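RNA of the mouse hypothalamus was sequenced in 16 libraries, 2 for each of 8 diets. The authors deposited raw gene counts, and per the submitters' processing notes the tools were HISAT2 2.1.0, FastQC, SAMtools 1.2, Subread 5.0, featureCounts and edgeR, with build GRCm38. The strand setting was not given in the sources used here. Without it, overlapping antisense genes cannot be told apart. The mean and SD of CPM are computed from TMM-scaled counts. Genes kept by filterByExpr (minimum count 10) numbered 16646, and edgeR 4.0.16 in R 4.3.3 fitted quasi-likelihood models to all 16 libraries: protein as 4 levels with fat, the 8 diets as separate groups, and a protein slope with an interaction kept for genes with an interaction p of 0.05 or less. P-values were adjusted by Benjamini-Hochberg over all genes tested, at 0.05. The main models had no replicate block.

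Members and lists were chosen with earlier results of these data known. Gene models and overlaps came from GENCODE M21, and copies from BLAST+ 2.17.0+ of coding sequences (at least 95% identity and 50% coverage). Genes named are all mitochondrial members, up to 3 highest and 3 lowest called members of each complex, core subunits and paralog pairs. A result that this rule names is not reported here. The 2 highest and 2 lowest called genes of the other lists could be named. Alternatives were median-ratio scaling, DESeq2 1.42.0, no count filter, the replicate number as a block, scaling without mitochondrial genes, leaving out libraries and the removal of a length trend. Steps were tested on simulated counts. No columns of unmapped samples were in the table.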

Additional observations from a re-analysis of the deposited data

Results flagged for a closer look

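In 192 groups of 4 libraries of a protein level, 21 had 1 library farther from the rest than Dixon's 95% critical value allows. Chance gives about 1 in 20 only for independent groups, and these are not independent. They share libraries, the sums and ratio hold genes also checked singly, and the untested Uqcrc1 row was added. The count of 21 can therefore not be set against 1 in 20. Of the 21, 15 concerned replicate 2 on 20% fat and 1% protein. There the nuclear sum was 10096 CPM and the mitochondrial sum 25379 CPM, with a ratio of 2.51, against ranges of the other 3 libraries given above. It was the highest library for mt-Nd2 (2280 CPM, others 1182 to 1281), mt-Atp6 (17.1 CPM, others 5.35 to 7.30), mt-Co3 (16 CPM, others 8.38 to 9.46) and mt-Nd4l (2.06 CPM, others 0.553 to 0.731). The same held for mt-Nd4 (1980 CPM, others 858 to 1010), mt-Nd5 (3236 CPM, others 1249 to 1547), mt-Nd6 (1279 CPM, others 564 to 620) and mt-Cytb (6140 CPM, others 2837 to 3394). It was the lowest for Ndufb9 (149 CPM, others 180 to 184), Ndufv1 (215 CPM, others 269 to 275), Uqcrq (104 CPM, others 124 to 126) and Atp5sl (62.8 CPM, others 71.4 to 72.8). At 2.5% protein, Cox7a2l was 80.4 CPM in replicate 1 of 20% fat, against 72.2 to 73.1 in the other 3. In replicate 2 on 20% fat and 2.5% protein, a library with cortex markers, Atp5b was 1313 CPM (others 1364 to 1372) and Ndufa4l2 was 5.00 CPM (others 3.53 to 3.77). At 5% protein, replicate 2 of 20% fat was lowest for Ndufv1 (197 CPM, others 223 to 229) and Cox5a (87.4 CPM, others 104 to 106). The Uqcrc1 row held 193 raw counts in replicate 1 on 20% fat and 5% protein and 2 to 5 in the other 3 libraries of that level.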

How the results depend on the processing

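The counts of called members at 1% against 20% protein rest on few libraries. Without the 2 libraries with cortex markers, 50 nuclear and 11 mitochondrial members were called, against 34.8% of all genes, and with the compared libraries alone 1 and 0, against 4.95%. Leaving out 1 library at a time gave 1 to 47 nuclear and 0 to 11 mitochondrial members, against 5.52% to 33.0% of all genes. Mitochondrial calls were 2 without a count filter, against 8.25%, and 2 with the length trend removed, against 13.7%. Scaling, DESeq2, no filter, scaling without mitochondrial genes and the length removal left the nuclear count between 19 and 34, against 8.25% to 15.4%.

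The labels do not tie equal replicate numbers together. Deviations of same-numbered libraries correlated between -0.17 and 0.34 over 28 pairs of diets, and 7 pairs were over 0.1. The nuclear sum was lower in replicate 2 than in replicate 1 in 7 of 8 diets. With the replicate block 39 nuclear members and 1 mitochondrial member were called, against 16.7%, and at 60% fat 16 members, against 11.2%. At 60% fat the count of 2 was 1 with median-ratio scaling (3.44% of all genes), 11 with DESeq2 (9.09%), 20 without a count filter (8.34%), 27 without the cortex-marker libraries (16.9%), 6 with the length trend removed (5.63%), and 0 to 27 leaving out 1 library. At 20% fat, where 0 were called, the count was 1 with the length trend removed (2.13%). It also moved above 0 without the cortex-marker libraries and in leaving out 1 library. A compared diet on 20% fat can then be left with 1 library, so those counts are not given. The protein line gave 9 with protein on a log2 scale (7.88%). Other alternatives left these counts within 1.5 times, and all left 0 at 2.5%, 5%, the fat contrast and the difference between fat levels. The cause of these changes was not tested.

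The 18 named members that were called lost the threshold in 152 of 432 alternative values, and the other 26 gained it in 51 of 624 and changed sign in 15. Cox6b2 was 0.0093 without the cortex-marker libraries and -0.23 to 0.017 leaving out 1 library. mt-Nd4l changed to -0.00495 with DESeq2, -0.014 with the block, -0.64 without the cortex-marker libraries, -0.13 with the length trend removed, -0.019 with the compared libraries alone, and -0.66 to 0.22 leaving out 1 library. Counts of 9 to 23 per library limit mt-Nd3, 10 to 38 mt-Nd4l and 23 to 48 Cox4i2.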
